A study of Mus musculus with 2 samples.

Results

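The 35 genes described here are type I interferon response genes, taken by symbol from the 31053 genes of the feature table, in which all 35 were found. Their transcripts were counted cell by cell with a droplet method in sorted mouse brain microglia, in 1 wild-type (WT) library and 1 library labelled IRF8KO. Both libraries came from female C57BL/6 mice aged 3 months with no treatment given in the labels, with cells of 3 mice pooled for each genotype, isolated without enzymes and sorted by flow cytometry. The title of the second library reads IRF8KO and its genotype entry reads WT, so it is called the library labelled IRF8KO, or IRF8KO for short, and every direction below rests on the title. The labels name no allele. With 1 pool per group no difference has a replicate check, no test of genotype exists, and the mice within a pool cannot be told apart.

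Type I interferons are cytokines made when a cell senses foreign or misplaced nucleic acid. They bind the receptor IFNAR1 and IFNAR2, whose kinases JAK1 and TYK2 activate STAT proteins, STAT2 among them. With IRF9, these form the factor ISGF3, which binds the interferon-stimulated response element (ISRE) in the promoters of antiviral genes. In the brain, a small set of microglia with high expression of such genes is known from ageing, injury and viral infection. IRF8, the factor named in the label, belongs to the interferon regulatory factor family and is needed for the microglial programme.

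Cells entered with 1000 or more UMIs (molecular tags that count captured transcripts), 500 or more genes and no more than 10% of UMIs from mitochondria. Cells with 2% or more of their UMIs in the neutrophil genes Camp, Ngp, S100a8, S100a9, Lcn2 and Ltf were set aside. This left 3304 WT cells with 18543061 UMIs and 5007 IRF8KO cells with 18980263 UMIs, and it set aside 98 IRF8KO cells and no WT cell. The median cell had 3204.5 UMIs in WT and 2933 in IRF8KO, and 5 cell barcodes were shared between the libraries. Irf8 itself had 14725 UMIs in WT and 12698 in IRF8KO, or 794 and 669 CPM (counts scaled to the library total), a log2 ratio of -0.25; 3′ UMIs outside a deleted part check nothing, and the labels do not say which part was deleted. All 11 microglia markers had UMIs in both libraries, but outside the top cells defined below they summed to 33393 CPM in WT and 17380 in IRF8KO, with Sall1 at 511 and 2.90. The 11 markers of border macrophages summed to 266 CPM in WT, where 6 were at 0, and to 3385 in IRF8KO, where Cd209f was at 0. These markers therefore moved with the label, and their part in the values below was not tested.

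For each gene, cells were ranked by the summed share of UMIs in the other 34 genes, and the top 2% of cells, 100 in IRF8KO and 66 in WT, were examined apart. A gene whose level stayed at least 2-fold higher without those 100 cells is called shared, since the difference was carried by the other 4907 IRF8KO cells as well. The promoters of 6 members at least 2-fold higher in IRF8KO are shown because these genes mark the ends of that range. Cxcl10, Rsad2 and Ifit2 had the largest shares of their UMIs in the top cells, and Xaf1, Bst2 and Slfn2 the smallest among those with a promoter in the table. Each runs 5′ to 3′ from 250 bases before to 50 bases after the start in RefSeq (GRCm38.p6), and capitals mark the ISRE letters, GAAA, any 2 bases and GAAA, on either strand.
Cxcl10, chr5:92348840-92349139, - strand: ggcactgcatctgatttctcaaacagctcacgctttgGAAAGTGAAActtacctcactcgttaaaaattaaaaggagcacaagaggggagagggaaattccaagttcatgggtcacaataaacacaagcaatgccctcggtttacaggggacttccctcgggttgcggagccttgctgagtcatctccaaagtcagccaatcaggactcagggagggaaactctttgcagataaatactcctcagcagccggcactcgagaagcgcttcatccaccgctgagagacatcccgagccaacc
Rsad2, chr12:26456403-26456702, - strand: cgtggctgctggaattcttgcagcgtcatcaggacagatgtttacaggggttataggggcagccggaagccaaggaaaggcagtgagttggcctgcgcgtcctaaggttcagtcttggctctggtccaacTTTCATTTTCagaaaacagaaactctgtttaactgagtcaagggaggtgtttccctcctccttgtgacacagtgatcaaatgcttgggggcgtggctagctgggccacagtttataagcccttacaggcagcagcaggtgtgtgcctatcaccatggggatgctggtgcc
Ifit2, chr19:34550444-34550743, + strand: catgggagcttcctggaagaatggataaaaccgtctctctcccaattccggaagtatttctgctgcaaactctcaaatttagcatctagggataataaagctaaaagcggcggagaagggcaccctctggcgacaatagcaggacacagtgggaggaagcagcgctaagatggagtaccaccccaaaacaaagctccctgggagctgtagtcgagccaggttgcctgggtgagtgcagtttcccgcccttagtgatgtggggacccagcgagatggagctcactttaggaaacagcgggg
Xaf1, chr11:72301379-72301678, + strand: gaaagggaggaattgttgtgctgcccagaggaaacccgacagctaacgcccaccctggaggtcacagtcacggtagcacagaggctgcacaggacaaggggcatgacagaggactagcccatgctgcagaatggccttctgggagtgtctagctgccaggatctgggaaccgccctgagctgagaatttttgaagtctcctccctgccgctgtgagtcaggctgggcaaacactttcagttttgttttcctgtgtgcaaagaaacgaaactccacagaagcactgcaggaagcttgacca
Bst2, chr8:71537423-71537722, - strand: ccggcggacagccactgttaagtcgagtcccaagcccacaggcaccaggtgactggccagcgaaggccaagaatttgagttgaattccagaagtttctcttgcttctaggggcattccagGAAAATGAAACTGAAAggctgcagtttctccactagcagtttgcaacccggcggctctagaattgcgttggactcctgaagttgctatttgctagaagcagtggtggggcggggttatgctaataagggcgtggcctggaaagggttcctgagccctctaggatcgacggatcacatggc
Slfn2, chr11:83064862-83065161, + strand: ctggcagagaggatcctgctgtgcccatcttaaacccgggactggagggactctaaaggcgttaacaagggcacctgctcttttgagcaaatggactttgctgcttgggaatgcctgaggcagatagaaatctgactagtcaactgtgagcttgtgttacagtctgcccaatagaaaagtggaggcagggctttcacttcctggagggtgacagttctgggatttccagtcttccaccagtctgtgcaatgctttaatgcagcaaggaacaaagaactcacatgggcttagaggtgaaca

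The 6 windows do not divide by the motif. Cxcl10 and Rsad2 hold 1 match each and Bst2 holds 2 overlapping ones, while Ifit2, Xaf1 and Slfn2 hold none in this window. RefSeq promoters were in the table for 27 of the 35 genes, and Oas2, Dhx58, Zbp1, Usp18, Parp9, Parp14, Rtp4 and Ifi27l2a had no entry. Of the 27, 16 (59.3%) held an ISRE match, against 3.99% of the 27025 genes in the table. A match is a description of letters and not a bound site. Matches were present in 7 of 12 shared members in the table and in 6 of 9 members within 2-fold.

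Of the 35 genes, 31 reached at least 10 CPM in a library. By CPM, 19 of the 31 were at least 2-fold higher in IRF8KO and 1, Phf11d, was at least 2-fold lower. Either library could meet the minimum, and 17 of the 31 met it in WT and 30 in IRF8KO. Of the 19, only Bst2, Rtp4, Ifi27l2a, Xaf1 and Slfn2 met it in WT. The others entered only through IRF8KO, where they were high, and Phf11d only through WT. The counts and medians of the 31 depend on this. The background over 8859 genes at that minimum was 5.61% higher and 9.28% lower by the same fold. The median log2 ratio of the 31 genes was 1.29, against -0.28 over all genes, which is 1.57 relative to that median. A positive ratio was seen in 26 of the 31, against 25.1% of all genes. The 35 genes together took 0.0873% of UMIs in WT and 0.192% in IRF8KO. Membership of the list was chosen with earlier results of these libraries known, so the counts are a description and not independent evidence of direction. Oas1a, Oas3, Oasl1 and Ifi44 stayed under 10 CPM in both libraries and enter no count.

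Without the top 2% of IRF8KO cells, 16 of the 31 were still at least 2-fold higher, against 5.55% of all genes, and Phf11d was still the only one lower, against 9.23%. The median log2 ratio was then 1.15. The members that were 2-fold higher with the top cells only were Cxcl10, Dhx58 and Ifi27l2a, 3 of 31 against 0.102% of all genes. Of these, Ifi27l2a lay at the line with a fold of 1.999 without the top cells, Dhx58 went from 2.05-fold to 1.81-fold, and Xaf1 stayed just inside at 2.21-fold. Cxcl10 went from a log2 ratio of 2.86 to -0.36, which was 0.079 (-0.44 to 0.59) once the WT cell with most Cxcl10 was left out as well. So for 16 of the 19 higher members the 2-fold difference was present outside the top cells too.

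**Figure D1:**
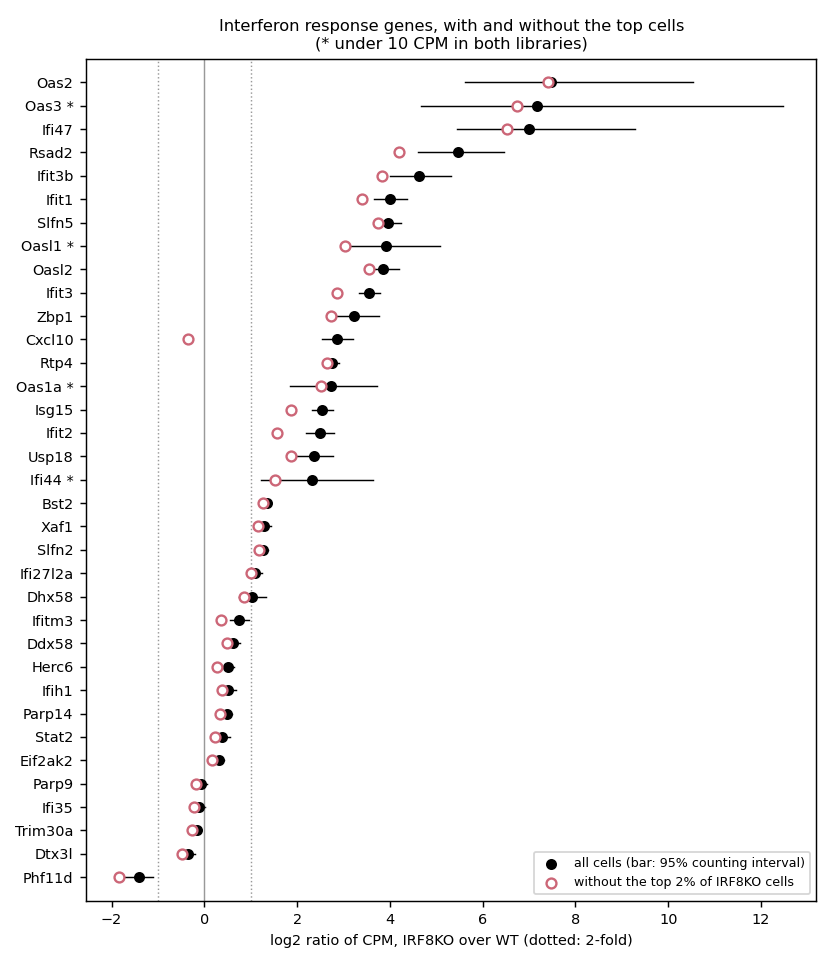
Log2 ratio of CPM (IRF8KO over WT) of each of the 35 genes over all cells (black, bar: 95% counting interval) and without the top 2% of IRF8KO cells (open red). Cxcl10 moves from 2.86 to -0.36, while Oas2, at 7.47 and 7.4, hardly moves.

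The IFIT genes encode proteins that bind viral RNA and block its translation, and all 4 were at least 2-fold higher with and without the top cells. They lie together on chromosome 19 in GRCm38. Ifit3 (34583531 to 34588731, + strand) had 166 UMIs in WT and 2003 in IRF8KO, or 8.95 and 105.5 CPM, a log2 ratio of 3.56 (95% counting interval 3.33 to 3.8). Ifit1 went from 72 to 1176 UMIs, a ratio of 4.0 (3.65 to 4.36). Both were high in IRF8KO, and counting intervals, here and below, cover counting error only. Ifit3b, a near copy of Ifit3, went from 21 to 528 UMIs (4.62, 3.99 to 5.32). Ifit2 went from 107 to 612 UMIs, and its ratio of 2.48 became 1.57 without the top cells, the largest drop among the IFIT genes. Of the 50-base words in the last 500 bases of Ifit3, 14.9% also occur in Ifit3b, so reads between this pair are uncertain. Of the end words of Ifit3b, 1.77% occur in another gene, E2f1, so the overlap lies at the end of Ifit3 only.

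The OAS genes encode enzymes that make 2′-5′-linked oligoadenylate, the signal that activates RNase L, and the OASL proteins are their relatives. Oas2 (chromosome 5, 120730333 to 120749853, - strand) had 2 UMIs among 3304 WT cells and 364 in IRF8KO, a log2 ratio of 7.47 (5.61 to 10.53). Only 6.59% of its IRF8KO UMIs lay in the top 2% of cells, the lowest share of the 35. Oas2 was thus spread widely, with at most 3 UMIs in any IRF8KO cell and UMIs in 321 cells. Oasl2 went from 84 to 1242 UMIs (3.85, 3.53 to 4.19). Under the minimum, Oas3 had 1 UMI in WT and 147 in IRF8KO (7.17, 4.67 to 12.48), Oasl1 had 9 and 139, and Oas1a had 12 and 81. Of the words in the last 500 bases of Oas1a, 56.1% also occur in Oas1g, so its counts are uncertain.

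Sensors of viral RNA differed less. Ddx58 (RIG-I) stood at 34.6 CPM in WT and 53.1 in IRF8KO, a log2 ratio of 0.62 (0.47 to 0.76), and Ifih1 (MDA5) at 27.9 and 39.7, a ratio of 0.51 (0.35 to 0.67). Eif2ak2, the kinase PKR that stops translation, had a ratio of 0.31 (0.19 to 0.42). None of the 3 reached 2-fold. Dhx58 (LGP2), which regulates both RIG-I-like sensors, went from 145 to 304 UMIs (1.03, 0.74 to 1.33). Zbp1, a sensor of left-handed nucleic acid that can start cell death, stood apart with 36 UMIs in WT and 347 in IRF8KO (3.24, 2.74 to 3.77), and 2.73 without the top cells.

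ISG15 is a small protein that is joined to other proteins after interferon. Isg15 had 181 UMIs in WT and 1078 in IRF8KO, at 9.76 and 56.8 CPM. Its log2 ratio of 2.54 (2.31 to 2.78) became 1.87 without the top cells. Usp18, which removes ISG15 and blocks signalling at IFNAR2, went from 61 to 319 UMIs (2.35, 1.95 to 2.77). Herc6, the ligase that attaches ISG15 in mouse, was within 2-fold at 48.2 and 68.8 CPM (0.51, 0.39 to 0.64). Its share in the top IRF8KO cells was still 17.2%, so Herc6 was unevenly spread although its total differed little.

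By total level, genes of signalling and regulation did not follow the antiviral genes, and none of the 4 was at least 2-fold higher. Stat2, a part of ISGF3, had 446 and 591 UMIs, a log2 ratio of 0.37 (0.19 to 0.55). Trim30a, which restrains NF-kB signalling, had a ratio of -0.16 (-0.25 to -0.07) and Ifi35 of -0.13 (-0.27 to 0.02), and both turned positive under TMM scaling, at 0.094 and 0.13. By cell, the top 2% held 11.3% of Stat2 UMIs in IRF8KO and 5.16% in WT. These shares were 9.04% and 4.30% for Trim30a and 8.43% and 3.19% for Ifi35. Phf11d went from 333 to 128 UMIs, or 17.96 to 6.74 CPM, a ratio of -1.41 (-1.72 to -1.11), and -1.83 without the top cells. In IRF8KO its remaining UMIs were concentrated, with 26.6% in the top cells against 5.41% in WT. Of the words in the last 500 bases of Phf11d, 22.5% also occur in other genes, mostly Phf11c.

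Parp9 and Dtx3l encode partners in a complex that modifies histones and viral proteins, and Parp14 encodes a related ADP-ribosyltransferase. Parp14 had a log2 ratio of 0.50 (0.40 to 0.59) and Dtx3l of -0.35 (-0.49 to -0.21). Parp9 had 857 and 834 UMIs, and its ratio of -0.07 (-0.21 to 0.07) turned positive under each of the 3 other scalings, at 0.016 to 0.18. None of the 3 genes reached 2-fold. Parp9 and Dtx3l overlap on opposite strands of chromosome 16, and how strand was used in counting is not given in the sources used here.

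Among membrane and other effectors, 8 of 9 at the minimum were at least 2-fold higher and 7 stayed so without the top cells. Rtp4 (chromosome 16, 23520291 to 23614222, + strand), a membrane-associated protein induced by interferon, had 342 UMIs in WT and 2344 in IRF8KO. Its CPM were 18.4 and 123.5, and the log2 ratio was 2.74 (2.58 to 2.91). Without the top cells the ratio was 2.65, so the top cells added little. Bst2 (tetherin), which holds budding virus at the cell surface, had the most UMIs of the 35 in IRF8KO, and stood at 108.6 CPM in WT and 278.4 in IRF8KO (1.36, 1.28 to 1.43). Rsad2 (viperin), an enzyme that makes a chain terminator of viral RNA synthesis, went from 11 to 495 UMIs (5.46, 4.61 to 6.47). Its ratio was 4.19 without the top cells, which held 59.2% of its IRF8KO UMIs.

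The Schlafen genes Slfn5 and Slfn2, which act in growth control and antiviral defence, were both in the shared set. Slfn5 went from 113 to 1803 UMIs (3.96, 3.69 to 4.25) and Slfn2 from 885 to 2174 (1.26, 1.15 to 1.38). Ifi47, an interferon-inducible GTPase, had 3 UMIs in WT and 393 in IRF8KO (7.0, 5.44 to 9.28). Like Oas2 and Oas3, it was at or under the floor of 3 counts in WT. Xaf1, a promoter of apoptosis, went from 468 to 1168 UMIs (1.29, 1.13 to 1.44), and Ifi27l2a from 503 to 1093 (1.09, 0.93 to 1.24). Ifitm3, which blocks entry of viruses through endosomes, was within 2-fold at 313 and 541 UMIs (0.76, 0.55 to 0.96), with 13.97% of its end words found in other genes.

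Cxcl10, a chemokine that attracts T cells, behaved unlike the other 34. It went from 87 UMIs in 16 WT cells to 646 UMIs in 40 IRF8KO cells, or 4.69 to 34.0 CPM. Of the IRF8KO UMIs, 578 (89.5%, exact interval 86.8 to 91.7) lay in the 100 cells ranked highest by the other genes, and 24 of those cells held all of them. The 4 IRF8KO cells with most Cxcl10 held 177, 65, 53 and 41 UMIs, together 52.0%. In each of these, the other 34 genes took 2.67% to 3.15% of UMIs. In WT only 1 of 87 Cxcl10 UMIs (1.15%) lay in the top 66 cells. The 4 WT cells with most Cxcl10 held 54.0% of it, had 24926 to 65891 UMIs in all, and gave 0.0562% to 0.108% of them to the other genes. Cxcl10 was therefore in cells high for the other genes in IRF8KO and in cells of ordinary rank and very high UMI number in WT. Outside the top cells it stood at 3.65 CPM in IRF8KO.

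The share of a gene's UMIs in the top cells ordered the whole list. Those cells held 1.86% of all IRF8KO UMIs, and the median over all genes was 1.70%. The median over the 31 members was 13.5%. Of the 30 members with at least 10 CPM in IRF8KO, 22 had at least 10% of their UMIs there, against 0.808% of 8170 genes. Since the ranking uses the other members, such shares describe how far the listed genes lie in the same cells. In WT, 3 of the 17 members at 10 CPM there had such a share, against 0.0472% of 8468 genes. Over the same 31 members in both libraries, the counts were 14 in WT and 23 in IRF8KO and the medians 8.97% and 13.5%. The medians over all genes were 1.31% and 1.70%, and no count over all genes stands beside the 14 and 23. Some of the WT shares rest on few UMIs, as for Oas2 (1 of 2) and Rsad2 (7 of 11). After Cxcl10 and Rsad2 in IRF8KO came Ifit2 at 47.9%, Ifit3b at 43.0%, Ifit3 at 39.9%, Isg15 at 38.3% and Ifit1 at 35.5%. At the other end were Oas2, Ifi27l2a at 7.59%, Rtp4 at 7.94%, Slfn2 at 8.14% and Bst2 at 8.46%. Oas2 and Rsad2, both with log2 ratios above 5, lay at opposite ends.

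**Figure D2:**
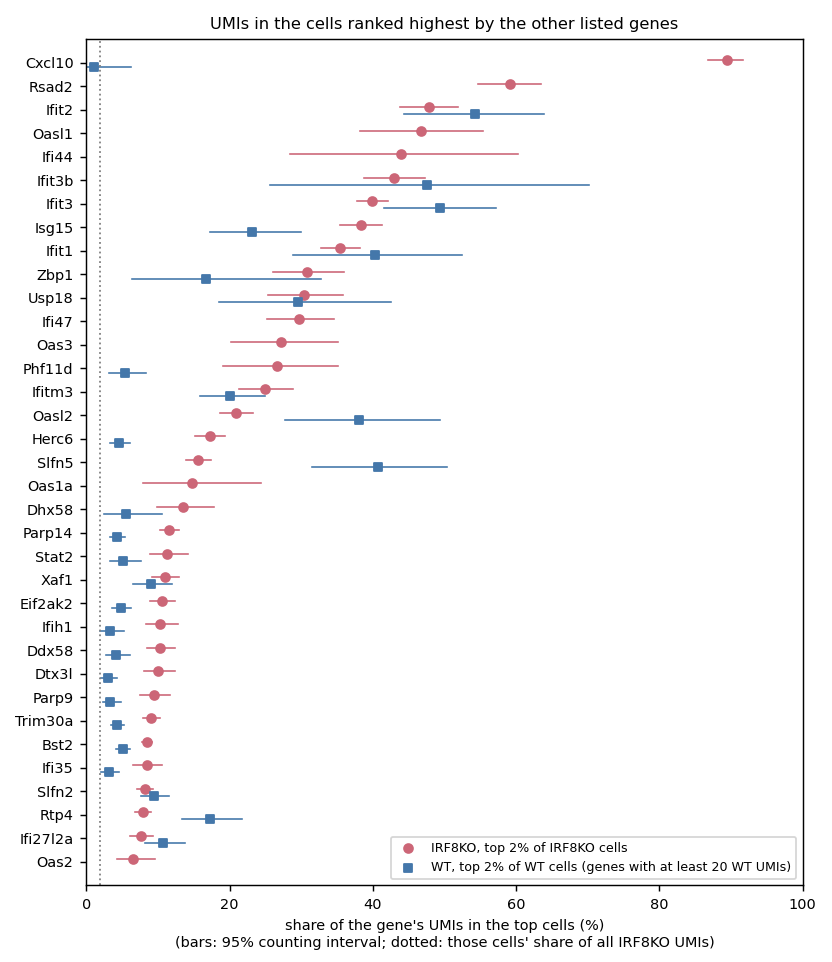
Share of each gene's UMIs (%) in the top 2% of cells ranked by the other 34 genes, in IRF8KO (red circles) and, for 28 genes with at least 20 WT UMIs, in WT (blue squares), with 95% counting intervals. The dotted line is the share of all UMIs held by the IRF8KO top cells, 1.86%. Cxcl10 is at 89.5% in IRF8KO and 1.15% in WT, and the IFIT genes are high in both.

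The WT library had its own concentrated set. Its top 66 cells held 1.36% of all WT UMIs and gave a median of 0.432% of their UMIs to the list, against 1.41% in the 100 IRF8KO cells. They held 54.2% of Ifit2, 49.4% of Ifit3 and 40.3% of Ifit1 UMIs. Of 28 members with at least 20 WT UMIs, the counting intervals of the WT and IRF8KO shares overlapped for 11, among them all 4 IFIT genes. For 3, the WT share was the higher beyond the intervals. Slfn5 had 40.7% of its UMIs in the WT top cells and 15.6% in the IRF8KO ones, Oasl2 had 38.1% and 20.9%, and Rtp4 had 17.3% and 7.94%. These 3 genes were less concentrated in IRF8KO. For 14, the IRF8KO share was the higher, among them Herc6 (4.59% in WT, 17.2% in IRF8KO), Parp14 (4.28% and 11.6%) and Isg15 (23.2% and 38.3%). Of those 14, 11 were not at least 2-fold higher in total, Isg15, Bst2 and Cxcl10 being the others. The same comparison was not made over all genes, so these counts have no background. The median share over all genes was itself lower in WT, at 1.31% against 1.70% in IRF8KO.

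Rank-matched sets of cells were then compared, to see how far the difference reached into cells low for the list. Each library was divided at 50%, 90% and 98% of its cells by the summed share of the other 34 genes. In the lowest 50%, 1652 WT and 2504 IRF8KO cells, the median log2 ratio of the 31 members was 0.83, and 14 were at least 2-fold higher and 2 lower. Over all genes in the same cells, the median was -0.29, 5.54% were higher and 9.74% lower. These 14 all belonged to the 16 shared members. The exceptions were Isg15, at 0.27 (-0.32 to 0.88), and Xaf1, at 0.71 (0.41 to 1.03). Several of the 14 rest on few UMIs. Ifit2 had 7 in WT and 24 in IRF8KO (1.53, 0.27 to 2.99), Ifit3b 2 and 25, and Usp18 3 and 25. The median of the members was 1.31 from 50 to 90%, 1.80 from 90 to 98% and 1.70 in the top 2%, against -0.27, -0.26 and -0.31 over all genes. Median depth in these sets was 3011.5 to 3486 UMIs in WT and 2896 to 2987.5 in IRF8KO. Of a shared member's IRF8KO UMIs, the lowest 50% of cells held from 3.92% (Ifit2) to 33.1% (Bst2). Ifit1 had 401 of its 1176 IRF8KO UMIs from 90 to 98% and 417 in the top 2%.

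Rtp4 and Slfn5 differed clearly in cells low for the rest of the list. In the lowest 50%, Rtp4 had 40 UMIs in WT and 473 in IRF8KO, a log2 ratio of 3.34 (2.88 to 3.85), and in the top 2% the ratio was 1.15 (0.72 to 1.6). Slfn5 had 8 and 289 UMIs in the lowest 50% (4.92, 3.92 to 6.15) and a ratio of 2.14 in the top 2%. For both genes the libraries were thus farther apart in the lowest 50% than in the top 2%. From 50 to 90% and from 90 to 98%, the ratios were 3.05 and 2.12 for Rtp4 and 4.18 and 5.16 for Slfn5. Rtp4 therefore fell at each step, while Slfn5 was highest from 90 to 98%. Oas2 had 0 and 61 UMIs there, at least 17.1-fold higher at a floor of 3 counts over the set, and Ifi47 had 2 and 80 (5.07, 3.17 to 8.14). Rsad2 had 0 and 32 UMIs, at least 8.97-fold higher by the same floor.

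For Isg15 the libraries were instead closer in the lowest 50% than in the top 2%. It stood at 5.65 CPM in WT and 6.83 in IRF8KO in the lowest 50%. In the top 2% it stood at 170 and 1171 CPM, where the ratio was 2.78 (2.32 to 3.27). Its ratio too was highest from 90 to 98%, at 3.56 (2.91 to 4.29). Cxcl10 had 32 UMIs in WT and 4 in IRF8KO in the lowest 50%, a ratio of -3.23 (-5.19 to -1.73), and 1 against 578 in the top 2%. Of those 32 UMIs 23 were in 1 WT cell, and without it 9 stood against 4 (-1.40, -3.55 to 0.44). Phf11d was also low in these cells, with 131 and 15 UMIs (-3.36, -4.24 to -2.59). Bst2 had a ratio of 1.11 (0.98 to 1.24) in the lowest 50%, against 1.36 over all cells, and Slfn2 of 1.05 (0.83 to 1.28), against 1.26.

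**Figure D3:**
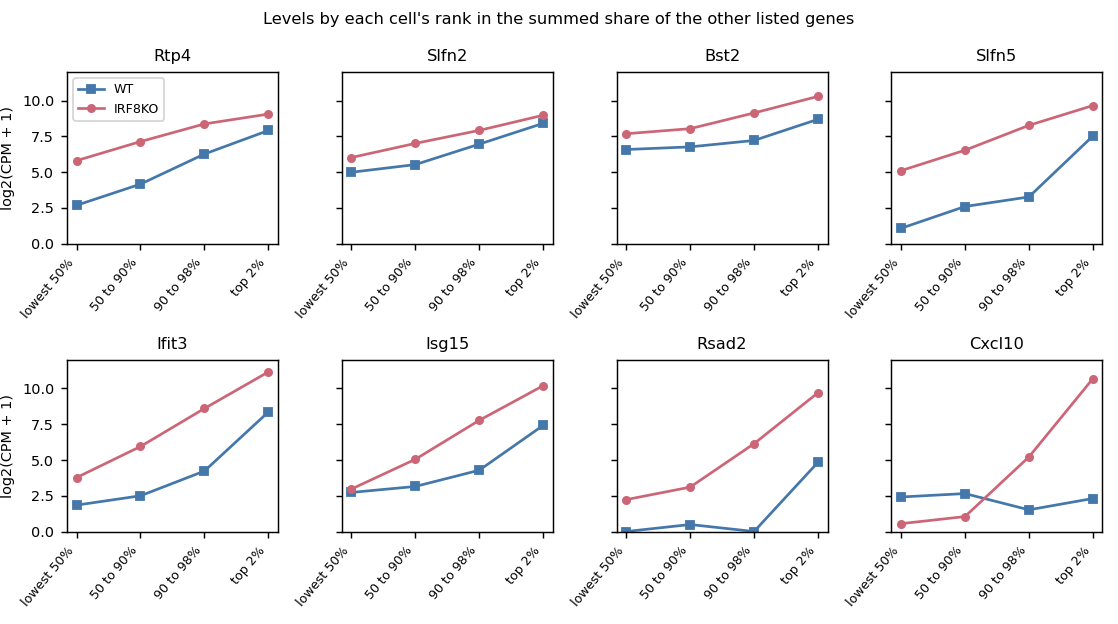
Level of 8 genes, as log2(CPM + 1), in cells of each library divided by rank in the summed share of the other 34 genes (WT blue squares, IRF8KO red circles). Rtp4 and Slfn5 lie farther apart in the lowest 50% than in the top 2%, Isg15 differs little there (5.65 and 6.83 CPM), and the Cxcl10 lines cross.

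Per cell, the list gave a long tail and a small shift. After each cell was thinned to 2000 UMIs, which left out 285 WT and 498 IRF8KO cells of lower depth, 3019 WT and 4509 IRF8KO cells remained. The 35 genes took a median of 0.05% of UMIs in the former and 0.1% in the latter, a difference of 1 UMI. No UMI of the list was seen in 24.6% of WT and 15.3% of IRF8KO cells. The 95th percentile of WT cells was 0.25%, which 16.5% of IRF8KO cells exceeded (exact interval 15.4 to 17.6), as did 3.71% of WT cells because of ties, and the value was 22.2% without thinning. A share over 1% was found in 87 IRF8KO cells (1.93%, 1.55 to 2.37) and 3 WT cells (0.0994%, 0.0205 to 0.290). A share over 3% was found in 16 IRF8KO cells (0.355%) and 0 of 3019 WT cells, a count that leaves room for up to 0.0994% by the floor of 3 cells and 0.122% by the exact interval. There was no gap at the 2% cut, where the lowest of the 100 top cells, unthinned, had 0.981% of UMIs in the list and the highest of the rest 0.979%. These values describe that cut only and not the rest of the tail.

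**Figure D4:**
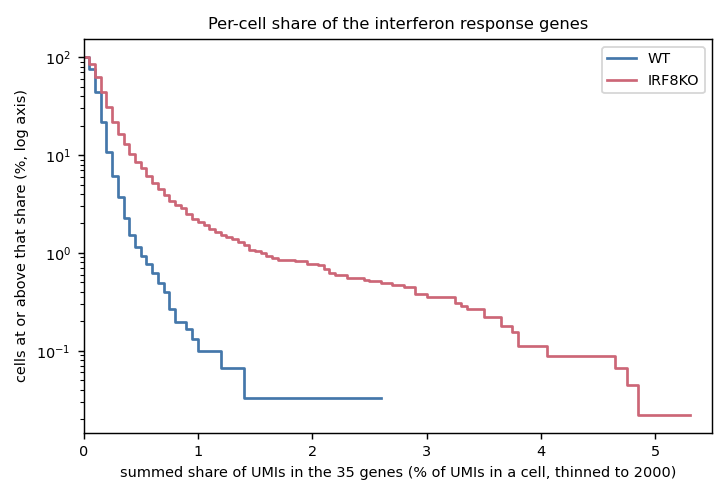
Percentage of cells (log axis) at or above a given summed share of UMIs in the 35 genes, after thinning to 2000 UMIs, in 3019 WT (blue) and 4509 IRF8KO (red) cells. The IRF8KO line reaches 5.3% of UMIs and the WT line ends at 2.6%.

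Detection per cell was sparse for nearly all members. After thinning, Bst2 had a UMI in 16.7% of WT and 37.4% of IRF8KO cells (33.3% and 50.6% before), Rtp4 in 3.01% and 19.0% (7.26% and 28.5%), Slfn5 in 0.861% and 13.8% (2.30% and 20.01%) and Ifit3 in 1.59% and 10.3% (2.88% and 14.9%). In 97 thinned neutrophil-like cells of IRF8KO, whose median depth was 7057.5 UMIs before thinning, these shares were 5.15% for Bst2, 1.03% for Rtp4 and Slfn5 and 0% for Ifit3. Oas2 had a UMI in 0% of WT, 3.39% of IRF8KO and 4.12% of neutrophil-like cells, so its IRF8KO share was no higher than in the latter. The same held for Oas3 (1.33% of IRF8KO and 7.22% of neutrophil-like cells) and Ifi27l2a (6.70% and 9.28%). It held also for Ifitm3 and Slfn2, which are described further below. Neutrophils can express such genes, so these cells are a reference and not a true blank. In its own top cells, Ifit3 had a UMI in 96% of cells, against 13.3% of the other IRF8KO cells, and Bst2 in 87% against 49.9%.

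Depth and markers of the top cells were set beside those of the other cells. The 100 IRF8KO cells had a median of 2987.5 UMIs and 3.51% mitochondrial UMIs, and the other 4907 had 2931 and 3.70%. The top sets changed little with the gene left out: 79 cells were in all 35 sets and 111 in any. None of the 100 was among the 208 IRF8KO cells with the highest doublet scores. The 11 microglia markers summed to 14608 CPM in the top and 17380 in the other IRF8KO cells, with Sall1 at 0 in the top cells and 2.90 CPM in the others. The 11 border macrophage markers summed to 2910 and 3385 CPM. The 8 neutrophil markers summed to 48.2 and 54.4 CPM, and T or NK cell, proliferating cell, neuron, astrocyte and red blood cell markers were all at 0 in the top cells and summed, list by list, to at most 13.9 CPM in the others. The 4 oligodendrocyte markers summed to 42.5 and 58.2 CPM. The 6 monocyte markers summed to 56.7 and 23.1 CPM, with Ly6c2 and Plac8 at 0 in both. The 5 plasmacytoid dendritic cell markers summed to 147 and 70.3 CPM, with Ly6d at 0 in both and Ccr9 and Pacsin1 at 0 in the top cells. The 4 endothelial markers summed to 68.1 and 22.0 CPM, mostly Flt1, with Cldn5 and Cdh5 at 0 in both. The 5 B cell markers summed to 45.4 and 25.9 CPM, and in the top cells only Ighm was above 0. The 5 dendritic cell markers summed to 17.0 and 10.6 CPM, with Clec9a and Cd209a at 0 in the top cells. In WT, the top and other cells stood at 31865 and 33393 CPM for microglia markers, 209 and 266 for border macrophage, 35.6 and 7.60 for monocyte and 19.8 and 4.10 for dendritic cell markers. WT endothelial markers stood at 75.1 and 53.1 CPM. The top cells held only 352553 UMIs in IRF8KO and 253071 in WT, so 1 UMI there was 2.84 and 3.95 CPM. Zeros and low sums in the top cells therefore rest on few UMIs and say little. The part of these markers in the results was not tested.

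Other genes of the pathway were counted by list. Of 13 interferon ligand genes none reached the minimum, and they had 3 UMIs in WT and 4 in IRF8KO in all. The receptor genes stayed within 2-fold, with Ifnar1 at a log2 ratio of 0.42, Ifnar2 at 0.14, Ifngr1 at -0.30 and Ifngr2 at -0.49. The kinases Jak1 (-0.62), Jak2 (-0.31) and Tyk2 (-0.40) did too. So did Il10rb (0.48), Stat3 (-0.68), Irf9 (0.12), Irf1 (-0.05), Irf2 (-0.38) and Irf3 (-0.15). Irf7, the factor that amplifies interferon production, was the only one of these 17 at least 2-fold higher. It went from 78 to 713 UMIs (3.16, 2.81 without the top cells), and 22.9% of its IRF8KO UMIs lay in the top cells. Irf7 met the minimum only in IRF8KO. Irf5, a factor downstream of Toll-like receptors, was lower at -1.35, and Irf8 itself stood at -0.25.

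Of 16 sensors and adaptors that induce interferon, 0 were at least 2-fold higher and 5 lower. Tlr3, the endosomal receptor for double-stranded RNA, had a log2 ratio of -1.51, Tmem173 (STING) -1.43, Ticam1 (TRIF) -1.38, Unc93b1, which carries Toll-like receptors to endosomes, -1.25, and Mavs, the adaptor of RIG-I, -1.005. Of 9 feedback inhibitors, 1 was lower, the phosphatase gene Ptpn1 at -1.38. These lower counts stand beside a background of 9.28%. Among these lower genes, Ticam1 met the minimum only in WT.

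Among 46 other interferon-stimulated genes at the minimum, 13 were at least 2-fold higher and 1 lower, with a median of 0.31, beside a background of 5.61% higher and 9.28% lower. The 13 were Mndal (10.83), Ifitm1 (8.47), Ifitm2 (6.54), Ifi207 (6.47), Samd9l (4.55), Gm4951 (4.29), Cmpk2 (3.84), Ifi204 (3.66), Ccl5 (2.87), Il18bp (2.52), Slfn9 (1.85), Cd274 (1.23) and Ifi209 (1.22). Of the 13, only Ifi204 met the minimum in WT, at 13.1 CPM. The others entered only through IRF8KO, where they were high, and the count of 13 depends on this. Mndal and Ifitm1 each had 1 WT UMI, with intervals of 8.35 to 16.13 and 5.98 to 13.77. The lower gene was Fcgr1, a receptor for antibodies, at -1.56. Chosen after their values were seen, B2m (0.30), Psmb8 (-0.48) and Tap1 (-0.27), genes of antigen presentation, were within 2-fold. Of 10 genes also induced strongly by interferon gamma, Iigp1 (3.21), Gbp2 (2.14) and Cxcl9 (2.04) were higher and Gbp3 (-1.23) lower, with a median of 0.02. Iigp1, Gbp2 and Cxcl9 also met the minimum only in IRF8KO, and Gbp3 only in WT. Cxcl9 had UMIs in 3 IRF8KO cells only, 149 of its 252 in 1 cell.

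**Figure D5:**
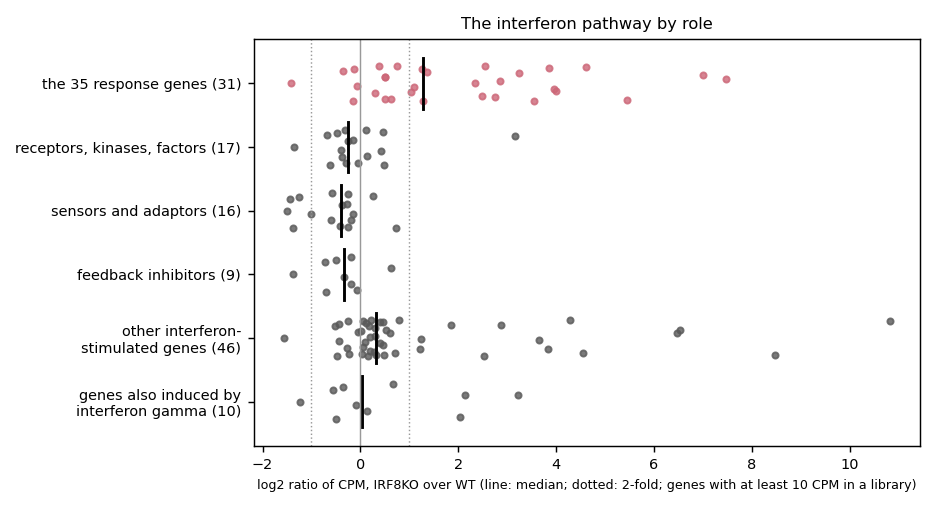
Log2 ratio of CPM (IRF8KO over WT) of each gene with at least 10 CPM in a library, for the 31 response genes (red) and the lists of other pathway genes (grey), with the number of genes in parentheses. Black lines are medians, 1.29 for the response genes and -0.25 for receptors, kinases and factors.

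Of 8140 genes outside the list with at least 10 CPM in IRF8KO, the 10 with the largest share of UMIs in the top cells were Iigp1 (46.3%), Cxcl9 (40.9%), Cmpk2 (40.5%), Ccl12 (39.7%), Ifi209 (34.3%), Lipg (28.4%), Ifi213 (26.6%), Ccl4 (26.6%), Gbp2 (24.6%) and Irf7 (22.9%). Of these, 7 were on the lists of pathway genes, and Lipg, Ifi213 and Ccl4 were not. For some of the 10, many UMIs lay in 1 cell. The cell with most UMIs of a gene held 149 of 252 for Cxcl9 and 46 of 190 for Iigp1. For Ccl4 it held 113 of 970 and for Gbp2 32 of 414. Ccl12, a monocyte chemokine, behaved partly like Cxcl10: its log2 ratio of 0.79 became 0.09 without the top cells, and 1 cell held 137 of its 2440 UMIs. Lipg, an endothelial-type lipase, had 0 UMIs in WT and 275 in IRF8KO, a log2 ratio of at least 6.48 at a floor of 3 counts over the group. Ccl4, at -0.56, had 0.0714% of its UMIs in the WT top cells.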

How the data were processed

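Raw UMI counts per gene and cell barcode were used as deposited by the authors, as whole numbers; per the file headers the matrices came from software version 3.1.0, and per the submitters' processing notes bcl2fastq, Cell Ranger 3.1, Scanpy and mm10 were used, with no roles stated. Reads shared between near copies, and strand, are not described in the sources used here. The labels' protocols also name a full-length kit, but the counts have the form of droplet data. The members and lists were chosen with earlier results of these data known.

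Cells were filtered and counts summed as described above (Python 3.11.15, numpy 2.4.6, scipy 1.17.1). In IRF8KO, neutrophil genes took at most 0.232% of UMIs in cells used and at least 2.36% in those set aside. Sums were divided by library totals to CPM. Ratios have exact conditional binomial intervals and shares exact Clopper-Pearson intervals, at 95%; all cover counting error only, since cells are not replicates. A count of 0 was set to a floor of 3 counts, 0.162 CPM in WT and 0.158 in IRF8KO. A call is a 2-fold ratio, taken where either library reached 10 CPM; it replaces a test. For genes outside the list, cells were ranked by the whole list. The ratios and the division into shared and few-cell patterns were tested on simulated data. For the division, members were raised either in all IRF8KO cells or in a random 2% of them. A rise graded over cells was not simulated, so the division was not tested for that case. Doublet scores (scrublet in scanpy 1.11.5) called 1 WT and 5 IRF8KO cells, too few for a working call, so all stayed in and an alternative left out 87 and 208 cells of highest score. TMM factors came from edgeR 4.0.16. Promoters and motifs came from RefSeq (GRCm38.p6), and gene positions from GENCODE on GRCm38, matched by gene identifier. Named genes were all members, pathway genes past 2-fold plus all receptors, kinases and factors, and the 10 other genes with the highest top share. Proteins of Ifit3 and Ifit3b were not used here, and 1 of the factors and 1 motif are not reported here.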

Additional observations from a re-analysis of the deposited data

Results flagged for a closer look

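The 98 neutrophil-like cells of IRF8KO enter no ratio between the libraries. Of the 31 genes at the minimum, 2 were at least 2-fold above both libraries there. Ifitm3 stood at 555 CPM there (468 UMIs), against 16.9 CPM in WT and 28.5 CPM in the IRF8KO cells used. Slfn2 stood at 297 CPM (250 UMIs), against 47.7 and 114.5 CPM. After thinning, Ifitm3 had a UMI in 67.0% and Slfn2 in 53.6% of 97 such cells. WT had no such cell, so no comparison of genotypes is possible. Without these 2 genes, the list took 0.0464% of UMIs in these cells.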

How the results depend on the processing

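No paired analysis was possible because each group is 1 library. The count of members at least 2-fold higher stayed at 18 to 20 of 31 over the alternatives run with the 10 CPM minimum (23 of 35 without it), and all 16 shared members remained shared under each of 12 alternatives. Under TMM scaling the all-gene median went from -0.28 to -0.02, the median of the members to 1.54 and that without the top cells to 1.40. With mitochondrial and ribosomal protein genes out of the totals, these were 1.44 and 1.296. Without a minimum the median was 2.32, since 4 low genes entered. Ratios that changed sign were Trim30a (0.094), Ifi35 (0.13) and Parp9 (0.18) under TMM, Ifi35 (0.025) and Parp9 (0.077) without mitochondrial and ribosomal protein genes, and Parp9 (0.016) without the 10 most abundant genes. A positive ratio was then seen in 29, 28 and 27 of 31. The median share in the top cells was 8.55% for the top 1% and 25% for the top 5%, by construction. The share of IRF8KO cells above the WT percentile was 13.1% with thinning to 1000 UMIs, 22.2% without thinning and 7.32% at the 99th percentile. It was 11.3% without Rtp4, Bst2, Slfn5, Slfn2 and Ifit3, an alternative chosen after seeing the data, as was leaving out Cxcl10 (16.4%). Where no cause is named, the cause was not tested. Without the WT cell with most Cxcl10, also chosen after seeing the data, its ratio without the top cells turned from -0.36 to 0.079 and that in the lowest 50% from -3.23 to -1.40. Depth limits values per cell: 1 UMI is 0.05% of a thinned cell.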
